A study of Mus musculus with 48 samples.

Results

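The genes described here are 38 genes of S phase and DNA replication. They were listed by gene identity and not by a cutoff on measured values, but with earlier results of these data known. They were looked up by Entrez ID in a table of 27179 gene IDs. All 38 were found, and all 38 passed the filter on low counts, which left 17068 genes for testing. Their smallest count in any library was 30 reads, for Orc1, so that no member entered the tests through a few high libraries alone. By role they comprised 10 origin licensing genes, 4 helicase activation genes, 3 genes of polymerases and primase, 5 of the sliding clamp and its loader, and 3 of lagging strand processing and single-stranded DNA binding. The others were 3 genes of deoxynucleotide supply, 4 of chromatin and histone supply, 5 of S phase entry and checkpoint, and 1 of mismatch recognition.

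A cell copies its DNA once per division. In G1 the origin recognition complex, CDC6 and CDT1 load the MCM helicase onto origins, and at the start of S phase CDC45 and the GINS complex turn that helicase on, so that the polymerases, the PCNA clamp and the ligase can follow the fork. Many of these genes are transcribed together by E2F factors once cyclin E and CDK2 activity has relieved E2F of the retinoblastoma protein. In mouse epidermis, dividing cells lie mainly in the basal layer and the hair follicles, and the number of epidermal cells in S phase is known to vary with the time of day.

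The study profiled bulk epidermis of mice aged 47 weeks by stranded polyA RNA sequencing, and by its title it concerns BMAL1, YAP and inflammation in aged epidermis. The 12 groups were mice labelled ColXIV KO and mice labelled ColXIV WT, each sampled at Zeitgeber time (ZT, hours after lights on by convention) 0, 4, 8, 12, 16 and 20, with 4 libraries in each group. The labels call these biological replicates, name no allele, promoter or other agent, and say that cell suspensions were made from skin. Every group shared the age and the tissue preparation, and no young group was among them. Nothing in the labels ties libraries to separate animals, so p-values measure the spread between these samples only.

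Libraries labelled KO held 37 to 42.4 M counts and libraries labelled WT 35.6 to 43.7 M. Col14a1, the gene named as knocked out, averaged 61.3 CPM (a gene's counts per M counts of the library, after scaling) ± 8.41 (SD, n = 24, range 45.3 to 80.1) in libraries labelled KO and 1.23 CPM ± 0.939 (SD, n = 24, range 0.261 to 4.13) in libraries labelled WT. That is a log2 fold change of 5.69 ± 0.19 (SE; edgeR, adjusted p = 2.4e-23) against the sense of the labels, so the groups are written as libraries labelled KO and libraries labelled WT throughout. Xist, the RNA of the inactive X chromosome, was expressed in 9 of 24 libraries labelled KO and 15 of 24 labelled WT, and by time in 4, 3, 4, 5, 3 and 5 of 8 libraries from ZT0 to ZT20. The pseudogene Gm5481 was at 9.78 CPM or more in all libraries labelled KO, at 9.62, 14.2 and 13.4 CPM in 3 libraries labelled WT (ZT4 replicates 3 and 4 and ZT16 replicate 2), and at 0.214 CPM or less in the others. The basal keratins Krt5 and Krt14 averaged 10600 and 4580 CPM over all libraries, and dermal Col1a1 averaged 8.59 CPM. In bulk tissue, fewer cells in S phase and less of these RNAs per cell cannot be told apart.

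Short stretches of promoter are shown first because the genes were searched for the E2F motif, the element through which many replication genes are known to be switched on together. RefSeq promoters (GRCm38.p6), covering 250 bases before to 50 bases after each start, were at hand for 32 of the 38 genes, and a gene with several starts counted once if any of its promoters held a match. The search used the letters TTTCCCGC, TTTGGCGC, TTTCGCGC and TTTGCCGC on both strands. A match was present in 14 of the 32 (43.8%), against 524 of 12249 tested genes with a promoter (4.28%). The 8 windows printed here lie before the start and are cut there, on the coding strand of the gene, with the match in capitals. The Mcm5 window is chr8:75109330-75109393 (plus strand), Mcm6 is chr1:128359778-128359841 (minus), Mcm7 is chr5:138172015-138172074 (minus), Cdc6 is chr11:98907987-98908046 (plus), Orc1 is chr4:108579401-108579453 (plus), Dtl is chr1:191575545-191575578 (minus), Uhrf1 is chr17:56304102-56304161 (plus) and Pola1 is chrX:93632260-93632319 (minus). In Mcm5 and Mcm6 the capitals cover 2 overlapping matches, 1 on each strand.
Mcm5: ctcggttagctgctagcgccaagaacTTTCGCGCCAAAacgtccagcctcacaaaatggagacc
Mcm6: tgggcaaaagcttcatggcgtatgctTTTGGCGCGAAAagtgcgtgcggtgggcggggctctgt
Mcm7: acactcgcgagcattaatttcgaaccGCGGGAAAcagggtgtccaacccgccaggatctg
Cdc6: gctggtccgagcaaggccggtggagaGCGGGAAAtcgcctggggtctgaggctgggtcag
Orc1: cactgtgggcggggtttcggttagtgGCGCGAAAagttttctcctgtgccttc
Dtl: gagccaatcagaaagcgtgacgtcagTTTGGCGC
Uhrf1: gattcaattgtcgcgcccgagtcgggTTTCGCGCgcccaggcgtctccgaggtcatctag
Pola1: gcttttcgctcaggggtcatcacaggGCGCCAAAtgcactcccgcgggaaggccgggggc

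The first comparison asked how the levels of these genes moved over the day, averaged over both labels. All 38 genes differed between the 6 times in edgeR's quasi-likelihood F test, with Benjamini-Hochberg adjusted p from 9.9e-19 for E2f1 to 0.00045 for Orc6, while 45% of all genes tested passed. At ZT12, when lights go off, 36 of the 38 were higher than at ZT0 and none was lower, against 6.5% of all genes called higher, and the median log2 fold change was 0.63 over the members and 0.0043 over all genes. At ZT16 all 38 were higher than at ZT4, against 8.22% of all genes, with medians of 0.64 and 0.0051. The 8 libraries of ZT12 lay above all 8 of ZT0 in 29 of the 38 genes and in 2.03% of all genes. The 8 libraries of ZT16 lay above all 8 of ZT4 in 30 of the 38 and in 1.5% of all genes.

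A cosine with a period of 24 h described the same pattern, and its 2 terms passed edgeR's quasi-likelihood test in 38 of 38 members, against 26.6% of all genes. It passed in 37 of 38 within libraries labelled KO and in 37 of 38 within those labelled WT, against 12.2% and 11.6% of all genes. In edgeR's test the exceptions were Tyms in libraries labelled KO (adjusted p = 0.0962) and Rfc4 in libraries labelled WT (adjusted p = 0.0609). The median member swung 1.72-fold from its fitted trough to its fitted peak, with a range of 1.21-fold for Orc6 to 3.00-fold for E2f1. Averaged over the genes, the mean log2 CPM was lowest at ZT0, with 3.76, 3.84 and 4.00 as lowest, median and highest of 8 libraries, and highest at ZT16, with 4.41, 4.57 and 4.76. No library of ZT12 or ZT16 fell among those of ZT0, ZT4 or ZT8.

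**Figure D1:**
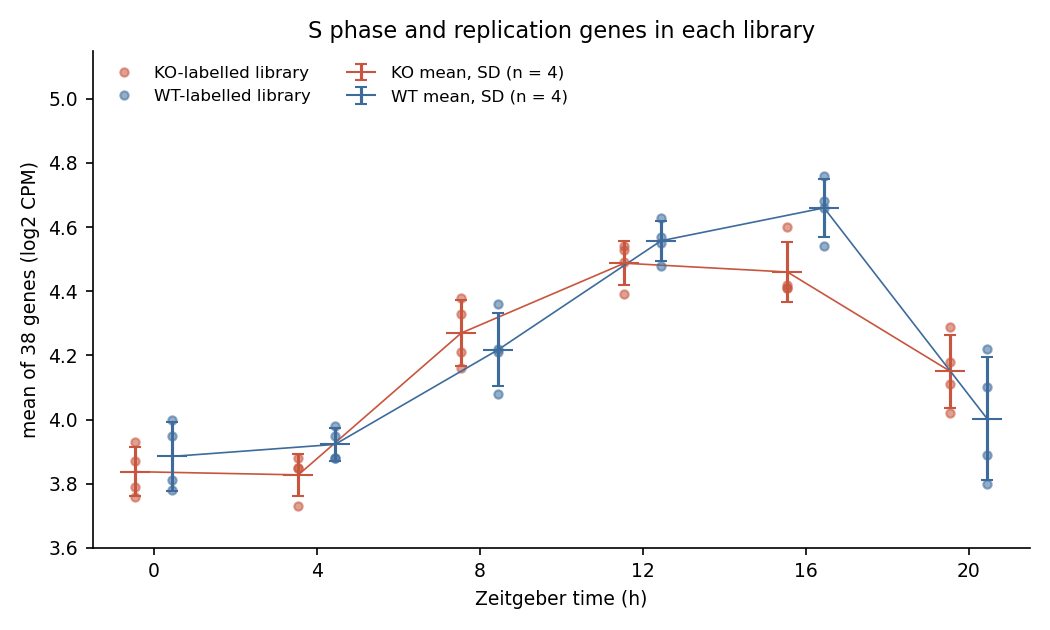
Mean log2 CPM of the 38 genes in each library (points) against Zeitgeber time in hours, with libraries labelled KO left of libraries labelled WT at each time and with group mean and SD (n = 4) as bars. Libraries of ZT12 and ZT16 lie from 4.39 to 4.76, and those of ZT0 and ZT4 from 3.73 to 4.00.

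Among the origin licensing genes, 10 of 10 were higher at ZT12 than at ZT0 and 10 of 10 were higher at ZT16 than at ZT4. Mcm2 to Mcm7 encode the 6 subunits of the helicase ring. Mcm2 had 58.0, 62.7 and 70.6 CPM as lowest, median and highest of 8 libraries at ZT12, against 22.4, 27.8 and 30.4 CPM at ZT0. Every ZT12 library was above every ZT0 library, and the log2 fold change was 1.23 ± 0.08 (SE; edgeR, adjusted p = 2.6e-15). In libraries labelled KO, Mcm2 averaged 26.8, 29.3, 51.4, 64.8, 57.1 and 38.6 CPM at ZT0, 4, 8, 12, 16 and 20, and in libraries labelled WT 27.8, 34.0, 51.4, 63.5, 68.1 and 32.3 CPM (SD 1.80 to 7.86, n = 4). Both courses climbed between ZT4 and ZT8, ahead of lights off, and had come down by ZT20. The mean at ZT20 was higher in libraries labelled KO, but the libraries overlapped (33.5 to 46.2 CPM against 26.6 to 39.3 CPM). No member was called between labels at that time.

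Mcm6, the most abundant licensing gene per length of exon, averaged 57.4, 64.8, 91, 109, 102 and 75 CPM over the 6 times in libraries labelled KO and 60.6, 73.2, 88.7, 113, 120 and 72.3 CPM in libraries labelled WT (SD 3.06 to 10.7, n = 4). Mcm4 averaged 39.8, 40.6, 58.2, 65.2, 58.3 and 47.3 CPM in libraries labelled KO and 39.7, 42.7, 57.4, 68.5, 67.3 and 42.9 CPM in libraries labelled WT (SD 1.57 to 4.71, n = 4). The log2 fold change of ZT12 over ZT0 was 0.92 ± 0.07 for Mcm6 (SE; edgeR, adjusted p = 3.1e-14) and 0.75 ± 0.05 for Mcm4 (adjusted p = 5.7e-15). Mcm3 averaged 20.8, 23.2, 36.2, 46.0, 43.6 and 28.9 CPM in libraries labelled KO and 21.3, 24.7, 35.8, 49.4, 50.6 and 25.3 CPM in libraries labelled WT (SD 1.69 to 5.68, n = 4). Mcm5 averaged 22.3, 24.8, 41.0, 52.4, 48.6 and 33.1 CPM in libraries labelled KO and 24.6, 28.8, 40.3, 54.5, 60.0 and 27.4 CPM in libraries labelled WT (SD 1.03 to 6.91, n = 4). The subunits of the ring did not swing equally: the fitted trough-to-peak fold was 2.55 for Mcm2, 2.51 for Mcm5 and 2.45 for Mcm3, but 1.95 for Mcm6, 1.78 for Mcm4 and 1.54 for Mcm7. Mcm7 shares 97.7% of 2157 bases with the pseudogene Gm5487, whose level was not analysed here, so that part of its level is uncertain.

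The loaders of the ring differed more. Orc1, the subunit of the origin recognition complex known in human cells to be made and destroyed with the cell cycle, averaged 1.53, 1.29, 2.45, 3.96, 3.07 and 1.76 CPM over the 6 times (8 libraries each) and swung 2.91-fold. Orc6, another subunit, averaged 18.2, 18.8, 19.4, 21.6, 21.9 and 18.8 CPM and swung 1.21-fold. Their log2 amplitudes were 0.771 ± 0.0551 and 0.136 ± 0.0254 (jackknife SE over libraries), at peak times of 13 and 13.5 h that differed by less than their errors. Cdc6 and Cdt1, which bring the helicase to the origin, each swung 2.29-fold. Cdc6 averaged 6.80 CPM at ZT12 against 3.71 CPM at ZT0, and shares 95.2% of 1260 bases with the pseudogene Gm9430. Cdt1 averaged 20.7 CPM at ZT12 against 9.58 CPM at ZT0.

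All 4 helicase activation genes were higher at ZT12 than at ZT0 and at ZT16 than at ZT4. Gins2, a subunit of the GINS ring, had 12.4, 13.6 and 15.7 CPM as lowest, median and highest of 8 libraries at ZT12, against 6.31, 7.10 and 7.89 CPM at ZT0. The groups did not overlap, and the log2 fold change was 0.95 ± 0.07 (SE; edgeR, adjusted p = 3.9e-14). Gins2 averaged 6.87, 8.01, 13.4, 14.2, 11.2 and 8.78 CPM over the 6 times in libraries labelled KO and 7.39, 8.76, 12.7, 13.3, 13.5 and 7.23 CPM in libraries labelled WT (SD 0.404 to 1.74, n = 4). It was among the earliest, already near its highest level at ZT8, where its 8 libraries held 11.3 to 15.5 CPM. Gins2, at a mean of 10.4 CPM, overlaps Gse1, at 133 CPM, on the opposite strand over 2758 of the 4097 exon bases of Gins2. The strand setting of the counts is not given, so part of the Gins2 level is uncertain. Gse1 showed a log2 fold change of 0.05 ± 0.08 (SE) between ZT16 and ZT4 (edgeR, adjusted p = 0.768), and its other times are not given here.

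Mcm10, which helps start the unwinding, ran later, averaging 3.06, 2.53, 3.37, 5.49, 5.69 and 4.08 CPM over the 6 times. Its fitted peak at 14.9 h lay 2.17 h ± 0.278 (SE) after that of Mcm2, and that of Gins2 at 11.7 h lay 1.03 h before it (difference -1.03 h ± 0.181). Cdc45, the partner of MCM and GINS in the active helicase, peaked at 14.3 h ± 0.303 (SE), which is 1.60 h ± 0.229 after Mcm2. Gins1 peaked at 12.3 h ± 0.410, and its difference from Mcm2 of -0.396 h ± 0.325 was close to its error. Mcm10, Cdc45 and Gins1, like the genes named in the following paragraphs beyond the highest of each role and the 8 with the smallest p in the time test, were chosen after their values were seen.

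Of the 3 genes of polymerases and primase, all were higher at both night times. Prim1, the catalytic subunit of primase, averaged 24.7, 24.9, 29.6, 32.0, 32.3 and 27.7 CPM over the 6 times in libraries labelled KO and 24.4, 27.7, 30.8, 34.2, 35.4 and 27.3 CPM in libraries labelled WT (SD 0.864 to 4.04, n = 4). Pole, the catalytic subunit of the leading strand polymerase, rose more, with 31.2 CPM at ZT12 against 15.3 CPM at ZT0 (log2 fold change 1.03 ± 0.09, SE; edgeR, adjusted p = 9.9e-12). Pola1, which extends the primer, was at its highest at ZT16, with 32.0, 34.6 and 36.5 CPM as lowest, median and highest of 8 libraries, against 18.5, 21.2 and 29.1 CPM at ZT4. Its libraries of ZT16 also lay above all 8 of ZT12, which held 24.9 to 30.3 CPM.

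The sliding clamp and its loader moved less, with amplitudes of 0.168 for Rfc4 to 0.238 for Pcna. Pcna, the ring that holds polymerases on the DNA, was the most abundant of the 38 genes per length of exon, at 45.5 CPM per kb. It had 114, 122 and 133 CPM as lowest, median and highest of 8 libraries at ZT12, against 90.9, 96.6 and 118 CPM at ZT0, so that the groups overlapped. Its log2 fold change was 0.31 ± 0.06 (SE; edgeR, adjusted p = 0.00015). Pcna averaged 98.3, 85.8, 109, 120, 119 and 113 CPM over the 6 times in libraries labelled KO and 100, 95, 104, 125, 138 and 101 CPM in libraries labelled WT (SD 3.77 to 13.7, n = 4). Its pseudogene Pcna-ps2 matches 99.2% of 781 bases and was not analysed here, so reads that fit both are uncertain.

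Rfc2, Rfc3, Rfc4 and Rfc5 encode small subunits of the loader that opens the ring, and each was higher at ZT12 and ZT16 with log2 fold changes of 0.20 to 0.38. Rfc3 was the earliest gene of all by its fitted peak, at 11.3 h ± 0.5 (SE), with 12.8, 14.2, 16.6, 16.2, 16.3 and 13.2 CPM over the 6 times. Rfc5 resembles the pseudogene Gm12870, and Rfc2 overlaps Lat2 on the other strand, which was at 1.97 CPM. Rfc4 overlaps Eif4a2 over 194 of its 1533 exon bases and Rfc5 overlaps Wsb2 over 499 bases, both on the opposite strand. The levels of Eif4a2 and Wsb2 are not given here, so part of the Rfc4 and Rfc5 levels is uncertain.

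The 3 genes of lagging strand processing and single-stranded DNA binding were all higher at both night times. Lig1, the ligase that joins Okazaki fragments, averaged 25.8, 24.9, 34.2, 42.2, 40.7 and 33.0 CPM over the 6 times in libraries labelled KO and 26.3, 26.3, 33.2, 42.5, 45.7 and 30.5 CPM in libraries labelled WT (SD 0.913 to 5.30, n = 4). Its log2 fold change of ZT16 over ZT4 was 0.75 ± 0.06 (SE; edgeR, adjusted p = 1.0e-11), and 99.2% of its variance between times followed the cosine. Fen1, the flap nuclease, averaged 20.7 CPM at ZT12 against 14.5 CPM at ZT0. Rpa2, a subunit of the single-stranded DNA binding protein, averaged 18.3 CPM at ZT12 against 12.6 CPM at ZT0. Fen1 overlaps Tmem258 on the opposite strand, and Tmem258 went the other way between ZT16 and ZT4 (log2 fold change -0.18 ± 0.06, SE; edgeR, adjusted p = 0.0284).

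Of the 3 genes of deoxynucleotide supply, all were higher at ZT16 than at ZT4, and 1 of them, Rrm2, ran late. Rrm1, the large subunit of ribonucleotide reductase, averaged 78.0, 79.1, 86.3, 89.4, 96.9 and 86.8 CPM over the 6 times in libraries labelled KO and 75.9, 86.8, 81.3, 99.8, 113 and 78.0 CPM in libraries labelled WT (SD 2.86 to 13.4, n = 4). Rrm2, the small subunit of the same enzyme, whose protein is known to be removed after S phase, had 25.1, 26.1 and 35.9 CPM as lowest, median and highest of 8 libraries at ZT16, against 13.7, 19.2 and 22.6 CPM at ZT4. Unlike 36 other members, it was not called between ZT12 and ZT0 (22.1 against 23.6 CPM, log2 fold change -0.10 ± 0.09, SE; edgeR, adjusted p = 0.547). Its fitted peak at 18.2 h lay 5.53 h ± 0.536 (SE) after that of Mcm2. Tyms, the thymidylate synthase, averaged 24.2 CPM at ZT16 against 17.5 CPM at ZT4 and only 56.3% of its variance between times followed the cosine, the smallest share of the 38. Tyms has many copies of parts of its sequence in the genome, including Tyms-ps at 2.37 CPM, and Rrm2 has the pseudogene Gm48455, so both levels carry that uncertainty.

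The 4 genes of chromatin and histone supply were higher at both night times. Uhrf1, which brings the maintenance DNA methyltransferase to hemimethylated DNA, averaged 31.5, 30.7, 48.3, 60.6, 51.9 and 40.8 CPM over the 6 times in libraries labelled KO and 34.1, 32.8, 45.9, 61.4, 66.1 and 36.4 CPM in libraries labelled WT (SD 2.11 to 9.39, n = 4). Its log2 fold change of ZT12 over ZT0 was 0.90 ± 0.10 (SE; edgeR, adjusted p = 2.0e-09), and it shares 98.3% of 1590 bases with the pseudogene Gm5648. Chaf1a and Chaf1b encode subunits of the chaperone that places histones behind the fork. Chaf1b averaged 14.1 CPM at ZT12 against 7.51 CPM at ZT0, and Chaf1a 24.5 CPM against 16.0 CPM. Chaf1a, at a mean of 19.9 CPM, overlaps Ubxn6, at 48.7 CPM, on the opposite strand over 4648 bases of exon, so part of its level is uncertain. For Ubxn6 the log2 fold change of ZT16 over ZT4 was -0.07 ± 0.04 (SE; edgeR, adjusted p = 0.214). Slbp, which binds the stem-loop of histone mRNAs, swung 1.29-fold, with 41.4 CPM at ZT12 against 34.9 CPM at ZT0.

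E2f1, the transcription factor of the G1 to S transition, had the smallest p and the largest amplitude of the 38 genes. It had 15.1, 17.4 and 18.9 CPM as lowest, median and highest of 8 libraries at ZT12, against 5.54, 5.97 and 7.46 CPM at ZT0. The lowest library at ZT12 held more than the highest at ZT0, and the log2 fold change was 1.46 ± 0.09 (SE; edgeR, adjusted p = 1.7e-16). E2f1 averaged 5.93, 5.98, 12.2, 16.2, 13.8 and 10.9 CPM over the 6 times in libraries labelled KO and 6.49, 6.76, 11.9, 17.9, 16.5 and 8.11 CPM in libraries labelled WT (SD 0.429 to 2.47, n = 4). Dtl, the substrate receptor of the ubiquitin ligase that destroys CDT1 in S phase, averaged 7.03, 6.62, 11.4, 14.3, 13.1 and 10.1 CPM in libraries labelled KO and 7.39, 7.74, 10.7, 16.3, 16.1 and 8.62 CPM in libraries labelled WT (SD 0.353 to 2.17, n = 4).

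The E cyclins, which start S phase with CDK2, were both higher at ZT12, Ccne1 at 2.56 CPM against 1.89 CPM at ZT0 and Ccne2 at 14.2 CPM against 8.90 CPM. Ccne2 overlaps Ints8 on the opposite strand over 609 of the 3495 exon bases of Ccne2. Ints8 was also higher at ZT16 than at ZT4 (log2 fold change 0.38 ± 0.05, SE; edgeR, adjusted p = 3.5e-08). Reads over the shared bases cannot be told apart without the strand setting, so part of the Ccne2 level is uncertain. Clspn, the checkpoint adaptor that activates CHK1 at stalled forks, averaged 12.0, 9.78, 10.5, 13.4, 16.2 and 14.5 CPM over the 6 times in libraries labelled KO and 13.5, 10.3, 9.39, 14.3, 19.9 and 12.8 CPM in libraries labelled WT (SD 0.5 to 3.16, n = 4). It was called between ZT16 and ZT4 (log2 fold change 0.84 ± 0.10, SE; edgeR, adjusted p = 5.0e-08) but not between ZT12 and ZT0 (0.12 ± 0.10, adjusted p = 0.502). Msh6, the mismatch recognition subunit that travels with PCNA, averaged 51.7, 50.9, 57.8, 61.2, 63.4 and 52.7 CPM in libraries labelled KO and 51.2, 49.7, 55.6, 64.9, 63.5 and 54.2 CPM in libraries labelled WT (SD 1.35 to 3.84, n = 4), and swung 1.29-fold.

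**Figure D2:**
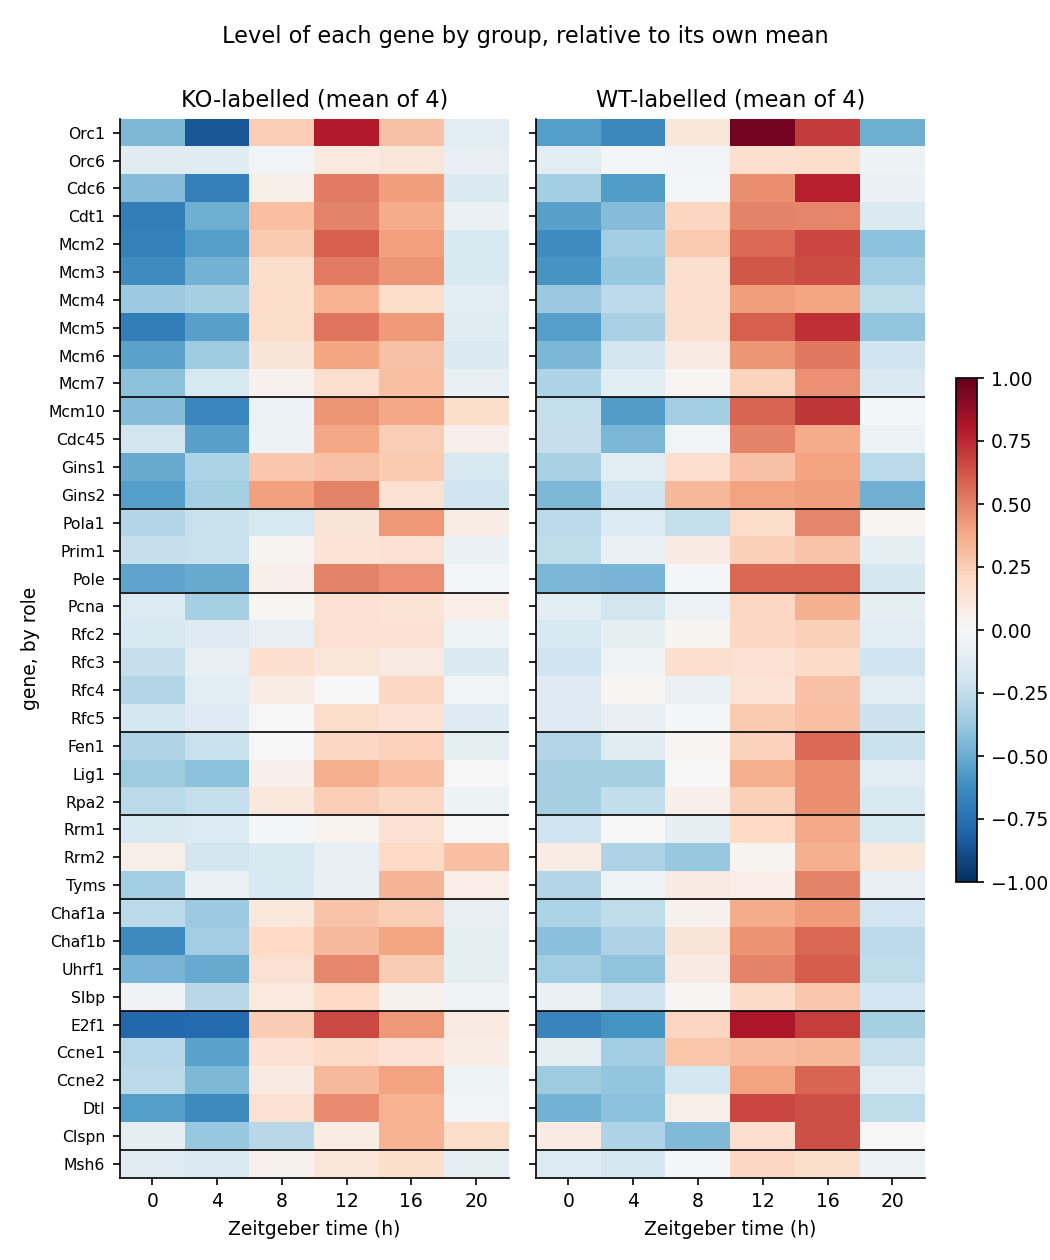
Level of each of the 38 genes in each group of 4 libraries, as log2 CPM of the group mean minus the mean over the 12 groups (red above, blue below), with libraries labelled KO in the left panel and libraries labelled WT in the right and Zeitgeber time in hours along the bottom. Lines separate the roles in the order of the text, and most rows are blue at ZT0 and ZT4 and red at ZT12 and ZT16, with Rrm2 and Clspn shifted later.

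Levels also differed widely per length of exon. After Pcna, at 45.5 CPM per kb over all libraries, came Mcm6 at 18.4, Mcm4 at 14.6 and Msh6 at 13 CPM per kb, while Mcm10 was lowest at 0.525, below Orc1 at 0.673, Dtl at 0.787 and Ccne1 at 0.818 CPM per kb. The large and small subunits of ribonucleotide reductase, Rrm1 and Rrm2, stood at 7.96 and 8.25 CPM per kb.

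The fitted peaks were close together. Of the 38 genes, 33 peaked between 12 and 15 h, 2 before 12 h (Rfc3 and Gins2) and 3 at 15 h or later (Pola1 at 15.3 h, Clspn at 16.9 h and Rrm2 at 18.2 h), with a median of 13.3 h and standard errors of 0.187 to 0.856 h. The mean of the licensing genes peaked at 13.1 h ± 0.222 (SE), which is 0.422 h before the mean of all members (difference -0.422 h ± 0.0801). The deoxynucleotide genes peaked at 15.9 h ± 0.537, later than the mean of all members by 2.40 h ± 0.459, with Rrm2 at 18.2 h but Rrm1 at 13.9 h and Tyms at 14.6 h. The polymerases and primase were later by 0.553 h ± 0.125 and the entry and checkpoint genes by 0.486 h ± 0.0965. Those means hold Pola1 (15.3 h) beside Prim1 (13.1 h) and Pole (13.7 h), and Clspn (16.9 h) beside E2f1, Ccne1, Dtl and Ccne2 (13.2 to 14.2 h). The chromatin genes were earlier (difference -0.299 h ± 0.0902). The activation genes differed by -0.125 h ± 0.117, the clamp and loader by -0.330 h ± 0.233 and the lagging strand genes by 0.0496 h ± 0.0846, each less than 2 SE. With samples 4 h apart, a single cosine fixes such differences only as far as its shape holds, and the median share of the variance between times that it described was 95.6%.

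**Figure D3:**
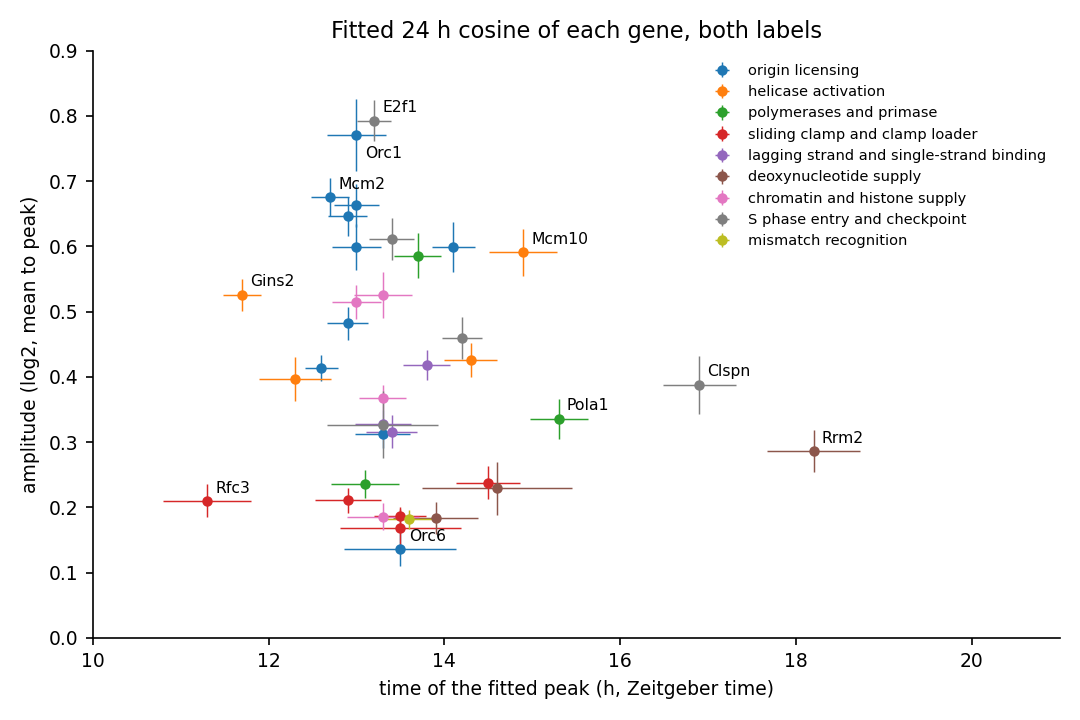
Amplitude (log2 from mean to peak) of each gene's fitted 24 h cosine against the time of its peak in hours, over both labels, coloured by role, with jackknife SE over libraries as bars. E2f1, Orc1 and Mcm2 have the largest amplitudes at 13.2, 13 and 12.7 h, while Clspn and Rrm2 lie apart at 16.9 and 18.2 h.

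Between the late night and the midday time the genes divided. At ZT20, 17 of the 38 were lower than at ZT8 and 3 were higher, against 4.65% and 5.19% of all genes, with a median log2 fold change of -0.16. Gins2 had 6.01, 8.08 and 10.5 CPM as lowest, median and highest of 8 libraries at ZT20, against 11.3, 12.7 and 15.5 CPM at ZT8, a log2 fold change of -0.71 ± 0.07 (SE; edgeR, adjusted p = 5.4e-10). Gins2, Mcm4 and Rfc3 were the 3 genes whose ZT20 libraries all lay below their ZT8 libraries, as did 1.07% of all genes, while no member lay wholly above, as did 1.06%. The 3 that were higher at ZT20 by edgeR's test were Rrm2 (log2 fold change 0.47 ± 0.09, adjusted p = 0.00027), Clspn (0.46 ± 0.10, adjusted p = 0.0022) and Pola1 (0.24 ± 0.07, adjusted p = 0.0263). These also had the latest fitted peaks, which were fitted to the same libraries and so are no separate evidence of late timing.

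A list of 66 other replication genes, of which 65 were tested, moved in the same direction but less. Of these, 57 of 65 differed between times, against 45% of all genes. At ZT16, 51 were higher and 1 lower than at ZT4, against 8.22% and 5.69% of all genes. At ZT12, 36 of the 65 were higher and 5 lower than at ZT0, against 6.5% and 5.62% of all genes. Their mean peaked at 14.8 h ± 0.302 (SE) with an amplitude of 0.194 ± 0.011, against 13.5 h ± 0.239 and 0.392 ± 0.0166 for the mean of the 38. Atad2, Timeless and Hells were among those with the smallest p, and Timeless, a fork protection factor, averaged 21.3 CPM at ZT12 against 9.77 CPM at ZT0. The 5 lower ones at ZT12 were Dbf4, Asf1b, E2f2, E2f8 and Ccna2, the last being the cyclin of late S phase and G2, with 22.2 CPM at ZT12 against 38.3 CPM at ZT0.

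Genes of G2 and mitosis ran the other way. All 24 listed were lower at ZT12 than at ZT0, against 5.62% of all genes, and 21 of 24 were lower at ZT16 than at ZT4, against 5.69%. Their mean peaked at 0.976 h ± 0.288 (SE) with an amplitude of 0.465 ± 0.0283, which is 11.5 h ± 0.447 from the peak of the 38 replication genes. Cenpf, a kinetochore protein, averaged 50.6, 51.5, 28.3, 19.5, 23.5 and 25.8 CPM over the 6 times, and Ccnb1, the mitotic cyclin, 26.8, 26.8, 15.9, 11.5, 13.8 and 13.6 CPM. Rrm2 and Clspn lay between both lists in time. Among markers of cell types, 3 of 10 basal keratinocyte genes and 3 of 11 spinous and granular genes differed between times. So did 0 of 15 anagen hair genes and 1 of 10 dermal genes, against 45% of all genes tested, so each list lay below that share. The summed basal markers held medians of 25300, 26600, 28000, 28400, 30100 and 26100 CPM from ZT0 to ZT20, and their part in the course of the replication genes was not tested.

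**Figure D4:**
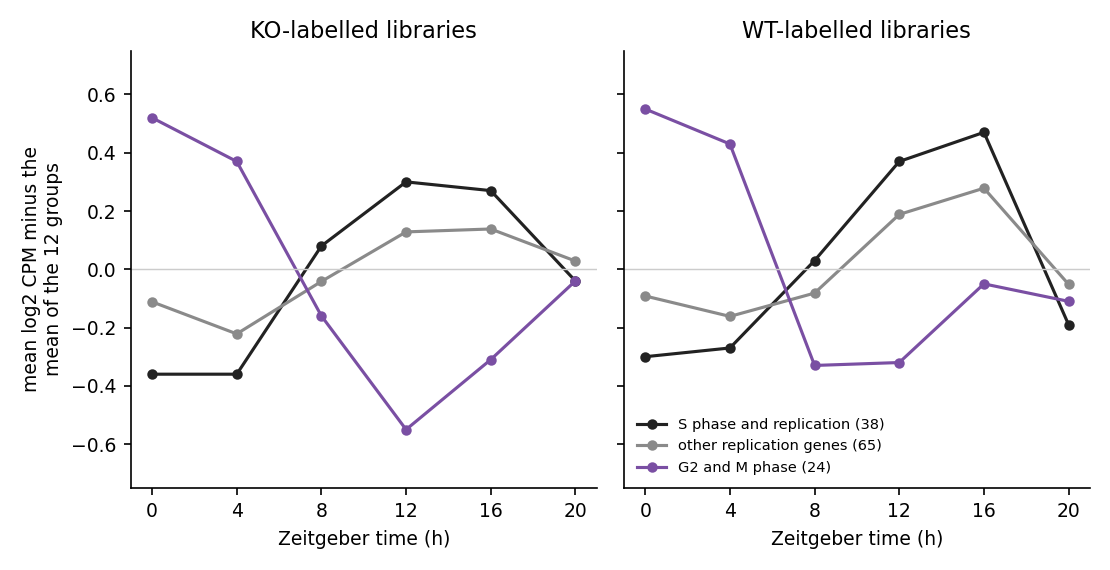
Mean log2 CPM of the 38 S phase and replication genes, of 65 other replication genes and of 24 genes of G2 and M phase in each group, minus the list's mean over the 12 groups, against Zeitgeber time in hours, with libraries labelled KO in the left panel and libraries labelled WT in the right. The G2 and M phase genes are highest at ZT0 in both panels, when the 38 genes are at or near their lowest.

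The 38 genes shared most of their variation. Over the 48 libraries, 83.2% of their variance lay along 1 principal component, on which all 38 had the same sign, against 25.0% for all genes tested. After the 12 group means were removed, 48.7% still lay along 1 component, again with 38 of 38 of the same sign, against 28.8% for all genes. Differences between times held 48.4% to 89.7% of the variance of a member, with a median of 80%, and differences between labels held 2.72% at most. In Xist-expressing libraries of either label the mean of the 38 genes was higher at ZT12 than at ZT0 by 0.736 (log2). In libraries without Xist it was higher by 0.537 (KO label) and 0.556 (WT label). Between ZT4 and ZT16 the rise was 0.562 to 0.739 over the same 4 sets. Each side held 1 to 3 libraries, so these values are a description and were not tested.

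Amplitude differed between genes with and without an E2F match, as a description of these 32 promoters. The 14 genes with a match had amplitudes of 0.182 to 0.771 with a median of 0.504, and the 18 without had 0.136 to 0.793 with a median of 0.301. Their median peaks were 13.3 and 13.4 h. The windows printed above belong to genes with amplitudes of 0.663 (Mcm5), 0.482 (Mcm6), 0.312 (Mcm7), 0.599 (Cdc6), 0.771 (Orc1), 0.611 (Dtl), 0.525 (Uhrf1) and 0.336 (Pola1). E2f1 and Mcm2 had no match to these letters in the 300-base window used here, although both swung widely. Of the other replication genes 39.2% held a match and of the G2 and M phase genes 4.76%. The CHR element, searched as TTTGAA and TTCGAA on both strands, was in 15.6% of the 32 genes, close to the 17.0% of all tested genes, in 23.5% of the other replication genes and in 81.0% of the G2 and M phase genes. The E-box CACGTG, the element that BMAL1 with CLOCK is known to bind, was in 4 of the 32 promoters (12.5%), close to the 11.0% of all tested genes, and the CCAAT box was in 68.8% against 42.5%.

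The second comparison asked whether the replication genes differed between libraries labelled KO and libraries labelled WT. Averaged over the 6 times, none of the 38 passed edgeR's quasi-likelihood test, where 0.34% of all genes did, and 1 passed at an unadjusted p under 0.05 (Prim1, log2 fold change -0.07 ± 0.03, SE; adjusted p = 0.714), where 6.9% of all genes did. That count became 6 with terms for sex-linked genes, 4 with terms for hair and dermal markers and 3 without the libraries labelled WT that carry Gm5481. After adjustment these settings called 0.762%, 0.334% and 0.328% of all genes and no member, and their unadjusted shares of all genes are not given. The sign was negative in 36 of 38, with a median log2 fold change of -0.04 and a range of -0.09 to 0.04, against a median of -0.0016 over all genes. As the 38 genes also varied together within groups, counts of signs here and below are not counts of separate observations. Shares of all genes with each sign are not given. For E2f1 the interval of the difference ran from -0.14 to 0.06 and for Mcm2 from -0.13 to 0.05 (95%, log2), which leaves out changes of the size seen over the day. DESeq2 and limma-voom also called none.

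At single times the genes again gave no call: 0 of 38 at ZT0, ZT4, ZT8 and ZT12, where 0.0527%, 0.0527%, 0.0762% and 0.0234% of all genes were called. At an unadjusted p under 0.05 the counts were 0, 0, 2 and 0 members, where 2.97%, 6.09%, 3.68% and 4.95% of all genes passed. The count of 0 at ZT4 became 8 without the WT-labelled libraries that carry Gm5481 (ZT4 replicates 3 and 4 among them), 6 with terms for sex-linked genes and 3 with terms for hair and dermal markers. Without those libraries 0.138% of all genes were called at ZT4 after adjustment, against 0.0527% in the main fit. With the sex-linked terms the share was 0.176% and with the marker terms 0.0527%. Shares of all genes at an unadjusted p under 0.05 are not given for these changes. With these changes the counts at ZT0 and ZT12 were 0 or 1, and at ZT8 the count was 1. The median log2 fold changes of the members over these times, in the same order, were -0.04, -0.09, 0.06 and -0.07. With single libraries left out, they ran from -0.072 to -0.0034, from -0.13 to -0.05, from 0.004 to 0.11 and from -0.10 to -0.04.

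At ZT16 all 38 genes had a negative log2 fold change, with a median of -0.19, from -0.41 for Orc1 to -0.0015 for Msh6. None was called after adjustment, where 0.129% of all genes were, while 17 were lower at an unadjusted p under 0.05, where 4.63% of all genes were. Mcm2 had 57.5, 55.7, 49.5 and 65.6 CPM in libraries labelled KO, against 76.1, 70.8, 68.0 and 57.4 CPM in libraries labelled WT (log2 fold change -0.25 ± 0.11, SE; edgeR, adjusted p = 0.445). The groups overlapped, as WT replicate 4 lay below KO replicates 1 and 4. By edgeR's test Fen1 had the smallest p, with 20.3, 19.6, 20.8 and 22.7 CPM in libraries labelled KO, against 25.5, 29.8, 26 and 23.6 CPM in libraries labelled WT, with no overlap (-0.33 ± 0.09, adjusted p = 0.157). When sex-linked expression was added to the model, edgeR called 2 members at ZT16, Fen1 (-0.35, adjusted p = 0.0456) and Rrm1 (-0.28, adjusted p = 0.031), where 0.709% of all genes were called.

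Several libraries and other markers moved with that difference. The count of 17 became 9 without WT replicate 2, which is among the 3 libraries labelled WT that carry Gm5481, and 11 and 10 without KO replicates 2 and 3. It became 23 without KO replicate 4 and 22 without WT replicate 4. Of 24 genes of G2 and M phase, 14 were lower at an unadjusted p under 0.05 and 23 were negative. All 15 anagen hair genes and all 10 dermal genes were negative as well, with median log2 fold changes of -1.90 and -1.87. Means of log2 CPM, which give single high libraries less weight, lay closer. At ZT16 they were 1.25 (KO label) and 1.97 (WT label) for hair, and 1.1 and 1.59 for dermis. Summed levels over all times ranged from 36.1 to 336 CPM (hair) and 86.2 to 216 CPM (dermis) in libraries labelled KO. In libraries labelled WT they ranged from 32.4 to 564 and 76.3 to 429 CPM. Xist was expressed in 1 of 4 libraries labelled KO and 2 of 4 labelled WT. Without the 3 libraries labelled WT that carry Gm5481, an alternative chosen after seeing the data, 10 members passed unadjusted, 36 were negative and the median was -0.155. With the means of both marker lists as terms, the median of the 38 genes at ZT16 was -0.19 and 17 again passed unadjusted.

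At ZT20 the sign turned, with 35 of 38 positive and a median log2 fold change of 0.13. None was called after adjustment, where 0.0586% of all genes were, and 5 were higher at an unadjusted p under 0.05, where 4.07% of all genes were. E2f1 had 9.02, 11.6, 12.6 and 10.6 CPM in libraries labelled KO, against 6.44, 7.42, 9.65 and 8.92 CPM in libraries labelled WT (log2 fold change 0.43 ± 0.12, SE; edgeR, adjusted p = 0.410). Only KO replicate 1 lay within the range of the WT-labelled libraries. All 15 anagen hair genes and all 10 dermal genes were positive too, with medians of 0.99 and 1.82, and Xist was expressed in 1 of 4 libraries labelled KO and 4 of 4 labelled WT. With the means of both marker lists as terms, the median was 0.10, 34 were positive and 3 passed unadjusted, and with terms for sex-linked genes the median was 0.10, 32 were positive and 3 passed. The count of 5 depended on single libraries: leaving out any of the 8 libraries of ZT20, or KO replicate 4 of ZT16, moved it by over 1.5 times, from 1 without KO replicate 3 to 18 without WT replicate 4 of ZT20.

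**Figure D5:**
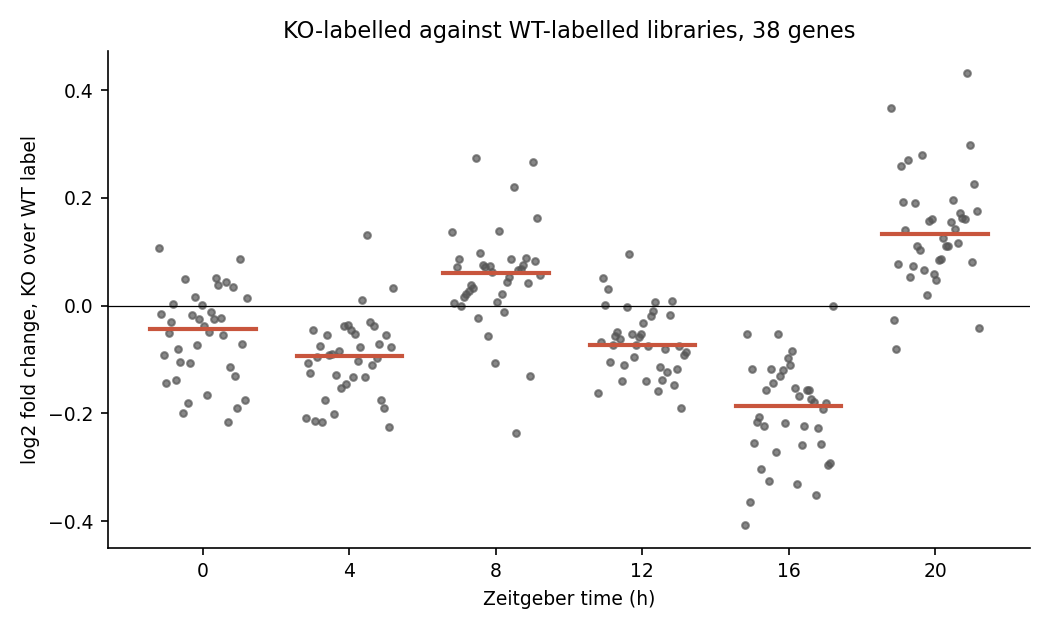
Log2 fold change of libraries labelled KO over libraries labelled WT for each of the 38 genes (points, in the order of roles from left to right) at each Zeitgeber time in hours, with the median as a bar. The medians are -0.19 at ZT16 and 0.13 at ZT20, and no point was called after adjustment over all genes.

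The test that the difference between labels changes over the day called none of the 38 and 0% of all genes (edgeR quasi-likelihood F test), with 9 members at an unadjusted p under 0.05, where 6.1% of all genes passed. These were Mcm2, Mcm4, Gins2, Pcna, Fen1, Rrm1, Slbp, E2f1 and Dtl, with adjusted p of 0.54 to 0.779. The count became 5 without KO replicate 3, WT replicate 1 or WT replicate 2 of ZT20 or WT replicate 2 of ZT16, and 19 without WT replicate 4 of ZT20. The 24 h rhythm itself was called different between labels in none of the 38 and in 0% of all genes, and at an unadjusted p under 0.05 in 0 members, where 2.31% of all genes passed. Fitted amplitudes were smaller in libraries labelled KO in 34 of 38, by a median of 0.0383 (log2; difference -0.0383), and no member's amplitude or peak time differed by more than 2 SE. The members varied together within groups, so these are not 38 separate observations, and the share of all genes with a smaller amplitude is not given. By group means, the highest of the 6 times was ZT12 for 24 genes and ZT16 for 12 in libraries labelled KO, and ZT12 for 7 and ZT16 for 31 in libraries labelled WT, a description that was not tested.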

How the data were processed

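Counts of reads per gene in 48 libraries were deposited by the authors. Per the labels' protocols, the kit was stranded and polyA-selected. STAR 2.7.10a, featureCounts, Trim Galore and the mouse build mm10 (GRCm38) are named in the submitters' processing notes. Which annotation and strand option were used is not given in the sources.

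Genes were named by RefSeq symbol (25275 of 27179 IDs). After edgeR's filterByExpr, 17068 genes were scaled by TMM (factors 0.919 to 1.07) and fitted with edgeR 4.0.16 (R 4.3.3), quasi-likelihood tests and Benjamini-Hochberg adjustment over all genes (threshold 0.05). One model had the 12 group means, another a 24 h cosine per label. Peak times and amplitudes carry jackknife errors over libraries within groups. Log2 CPM used a prior count of 2. Exon lengths and overlaps came from GENCODE M21, copies from blastn. The fit was tested on simulated data. No 2 libraries held identical counts.

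The members and lists were chosen with earlier results of these data known. Values in every group are given for the 8 members with the smallest p in the time test, any member called between labels, and the most abundant member of each role. Of other lists, up to 4 called genes with the smallest p were to be named, and the 5 that were lower at ZT12 were picked once values had been seen. Alternatives were other size factors (RLE), DESeq2 1.42.0, limma-voom 3.58.1, looser and stricter filters (1 CPM in 24 libraries), 12 h terms added to the cosine, medians over members with at least 5 CPM, a replicate block, terms for sex-linked expression or tissue make-up, and each library left out in turn. Leaving out the 3 libraries labelled WT with Gm5481 was added after seeing the data.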

Additional observations from a re-analysis of the deposited data

Results flagged for a closer look

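In 16 quantities over 192 groups of 4 libraries, 13 times a single library stood far from the other 3 by Dixon's 95% criterion for a gap over the group's range, where chance gives about 1 in 20. The mean of the 38 genes was 4.60 (log2 CPM) in KO replicate 4 of ZT16, with 4.41 to 4.42 in the others. WT replicate 4 of ZT16 was low for Mcm6 (109 CPM, others 122 to 124), Lig1 (37.8, others 47.9 to 49.2) and Uhrf1 (52.2, others 69.5 to 72.4). KO replicate 2 of ZT12 was low for Mcm3 (42.3 CPM, others 46.9 to 47.4) and Mcm5 (45.4, others 54.5 to 55). KO replicate 4 of ZT0 was low for Mcm2 (22.4 CPM, others 28.0 to 28.8) and Lig1 (24.5, others 26.2 to 26.4). WT replicate 2 of ZT4 was high for E2f1 (7.91 CPM, others 6.23 to 6.51) and Mcm4 (47.6, others 40.7 to 41.5). Prim1 was low in KO replicate 1 of ZT4 (22.5 CPM, others 25.4 to 25.9) and in KO replicate 3 of ZT8 (25.7, others 30.6 to 31.1). Gins2 was high in WT replicate 3 of ZT8 (13.8 CPM, others 12.2 to 12.4).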

How the results depend on the processing

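Counts of adjusted calls were taken as unchanged within 1.5 times. Medians were taken as unchanged within 0.102 (log2), the pooled SD of the members' mean, which is larger than most medians between labels. Values of single genes were taken as unchanged if they kept their direction and their side of the threshold. Counts at an unadjusted p under 0.05 were not included. Shares of all genes at that threshold are given for the main fit only, so member counts under the alternatives stand without them. Of 3206 values under 11 alternatives and with each of 48 libraries left out, 3205 were unchanged by these rules. The exception was the count of members called between labels at ZT16, which became 2 with terms for sex-linked expression, against 0, and its cause was not tested. Leaving out 1 library gave 34 to 36 members called between ZT12 and ZT0, 36 to 38 between ZT16 and ZT4, 15 to 21 between ZT20 and ZT8, and 0 between labels. The median of the members between labels then ran from -0.23 to -0.15 (log2) at ZT16 and from 0.06 to 0.18 at ZT20. Deviations of libraries with the same replicate number had r from -0.365 to 0.636 (24 pairs, median 0.0917, 11 over 0.1), and the median was -0.0445 for different numbers. The replicate number is that of the sample titles, which in several groups differs from the number in the library name. A shared batch was therefore not tested. With the replicate block, 35 members were called between ZT12 and ZT0, and no count of adjusted calls moved beyond 1.5 times. The count at an unadjusted p under 0.05 between labels at ZT8 was then 1, against 2. Between labels over the day DESeq2 called 26 of all genes and 0 members. Averaged over times, the count of members at an unadjusted p under 0.05 lay between 0 and 4 with single libraries left out, against 1 with all, 33 of which moved it by over 1.5 times, and was 6 with terms for sex-linked expression. With 4 libraries a group, differences between labels at single times are known only to their standard errors, 0.05 to 0.21 (log2) at ZT16.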
